A study of Mus musculus with 21 samples.

Results

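The genes described here carry out or support acid secretion in the parietal cell, the acid-producing cell of the stomach. The 10 genes were listed by name as the proton pump, the potassium channels, the anion exchangers, a water channel and a nuclear receptor of that cell. They are 10 of the 22180 genes that could be tested. Each was measured by 1 probe set (a set of probes for one transcript) that the array's gene table assigns to that gene alone. No filter on low values was applied, so all 10 entered every test.

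In the parietal cell, the H+,K+-ATPase exchanges cytosolic protons for luminal potassium, and potassium channels in the apical membrane return the potassium that the pump takes up. Bicarbonate made alongside the protons leaves through basolateral anion exchangers in return for chloride, which follows the protons into the lumen. Histamine, acetylcholine and gastrin start secretion, and tubules loaded with the pump then fuse with the apical membrane.

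The cells came from the corpus of the mouse stomach and were sorted by the brightness of Lgr5GFP, a fluorescent reporter of the Lgr5 gene, into high, low and negative populations. The treated mice had been given tamoxifen (0.27 mg per g body weight) 24 hours ahead of cell isolation. The control mice are marked as uninjected in the titles, so drug and injection cannot be told apart. There were 4 arrays for each tamoxifen population and 3 for each control population, 21 in all. Per the series text they are technical replicates from separate sorting runs, so p-values here measure the spread between sorting runs, and each run held 1 treatment only. The number before the replicate in each title was read as the run, which no label states outright. Genotype, strain and age were not given in the sources used here. Tamoxifen at a high dose is known to injure parietal cells in mice. All populations here were sorted by a reporter of another gene, so none is a purified parietal cell population. In bulk RNA of this kind, fewer parietal cells and less RNA per parietal cell cannot be told apart.

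Levels are the deposited log2 signal, where a difference of 1 is a 2-fold difference. The 95th percentile of the mean levels of 1105 olfactory receptor genes, 4.16, served as a guide to background. Levels of different genes come from different probe sets and are not compared with each other. The reporter's own gene checked the gates. Lgr5 had mean levels of 8.79, 7.56 and 4.41 in the high, low and negative populations of control mice and of 8.44, 6.70 and 4.59 in those of tamoxifen mice. The control negative samples carry a source name that says low, but their titles and cell population labels say negative, which were used. Markers of other lineages were partly above background. Of 5 immune genes, Cd68 was above it in all 6 groups and Ptprc in 5, and Cd3e, Adgre1 and Itgam were below it in all 6. Of 6 fibroblast and endothelial genes, 3 to 6 were below it, depending on the group.

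RefSeq promoter windows of GRCm38.p6 (250 bases before to 50 after a gene's start) were listed for 6 of the 10 genes, 14 windows in all. The upstream 250 bases of 4 of these windows, all on the plus strand, are printed because they hold the letter matches described next. The genes are Atp4a, the catalytic pump subunit, Kcne2, a potassium channel subunit, and Kcnj16, an inward rectifier. Capitals mark the matches. The Atp4a window is chr7:30711959-30712208, the Kcne2 window is chr16:92292139-92292388, and the Kcnj16 windows are chr11:110967783-110968032 and chr11:111023610-111023859.
Atp4a: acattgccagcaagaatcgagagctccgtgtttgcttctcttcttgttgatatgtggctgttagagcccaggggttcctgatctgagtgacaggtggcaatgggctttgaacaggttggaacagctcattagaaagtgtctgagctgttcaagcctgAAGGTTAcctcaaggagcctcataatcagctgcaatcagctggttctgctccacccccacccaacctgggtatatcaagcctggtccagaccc
Kcne2: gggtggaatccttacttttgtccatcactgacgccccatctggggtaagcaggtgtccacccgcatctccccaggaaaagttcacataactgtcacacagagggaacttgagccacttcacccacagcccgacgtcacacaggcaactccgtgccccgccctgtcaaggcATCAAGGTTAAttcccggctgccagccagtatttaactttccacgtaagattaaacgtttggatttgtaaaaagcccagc
Kcnj16, first listed start: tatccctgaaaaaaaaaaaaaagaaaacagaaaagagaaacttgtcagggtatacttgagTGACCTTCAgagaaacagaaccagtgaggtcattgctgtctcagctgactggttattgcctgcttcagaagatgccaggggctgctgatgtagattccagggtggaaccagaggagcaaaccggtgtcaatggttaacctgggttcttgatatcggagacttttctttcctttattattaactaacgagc
Kcnj16, last listed start: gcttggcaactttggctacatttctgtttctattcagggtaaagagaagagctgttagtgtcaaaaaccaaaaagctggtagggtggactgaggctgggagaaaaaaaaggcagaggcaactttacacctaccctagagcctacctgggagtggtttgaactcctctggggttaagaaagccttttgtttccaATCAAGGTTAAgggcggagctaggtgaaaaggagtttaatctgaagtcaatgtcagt

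Estrogen-related receptors, the family to which Esrrg belongs, are known to bind the letters TNAAGGTCA. Searched on both strands, this motif was present in 1 of the 14 windows, that of Kcnj16 at its first listed start, as TGACCTTCA, with its first base 190 bases before the start. The motif occurred in 1.28% of 32851 mouse promoter windows of the same length. Its core AAGGTCA, which lies inside the same match, was in 1 of the 14 windows and in 4.72% of all windows. The letters AAGGTTA were picked after the windows had been read. They were in 3 of the 14 windows, those of Atp4a, Kcne2 and Kcnj16 at its last listed start, and in 2.59% of all windows. The longer run ATCAAGGTTAA was taken as the longest run around AAGGTTA that a Kcne2 and a Kcnj16 window share. Its presence in both was therefore fixed by the choice, and a run picked for its length is rare. Of the 32851 windows, 8 contained it, including the 2 it was taken from. These matches are descriptions of sequence, and no measure of binding was made.

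In control mice, acid secretion genes had their highest mean levels in the Lgr5GFP low cells. Of the 10 genes, 9 had their highest group mean of all 6 groups there, and the exception was Kcnj15, which was highest in tamoxifen low cells. Slc26a7, 1 of the 9, was below background on every array, so its order of means cannot be read. Within control mice, limma called 3 of the 10 higher in low than in negative cells (1.85% of all genes). It called 5 lower in high than in low cells (0.645% of all genes). At the other end, 6 of the 10 had their lowest mean in tamoxifen high cells, and 1 of these 6, Aqp4, was below background there. For Esrrg this lowest mean was close to that of control high cells (6.38 and 6.41). For Kcnj16 it was close to that of tamoxifen negative cells (4.27 and 4.33), with both near background. How often all genes had their highest or lowest mean in these groups was not counted. The mean log2 level over the 10 genes, array by array, lay between 7.86 and 8.55 in control low cells and between 5.46 and 6.32 in tamoxifen high cells. Arrays of a group shifted together for many of the genes. Replicate 1 of the control low cells was the highest of its group for 9 of the 10 genes, and replicate 3 was the lowest for 9.

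**Figure D1:**
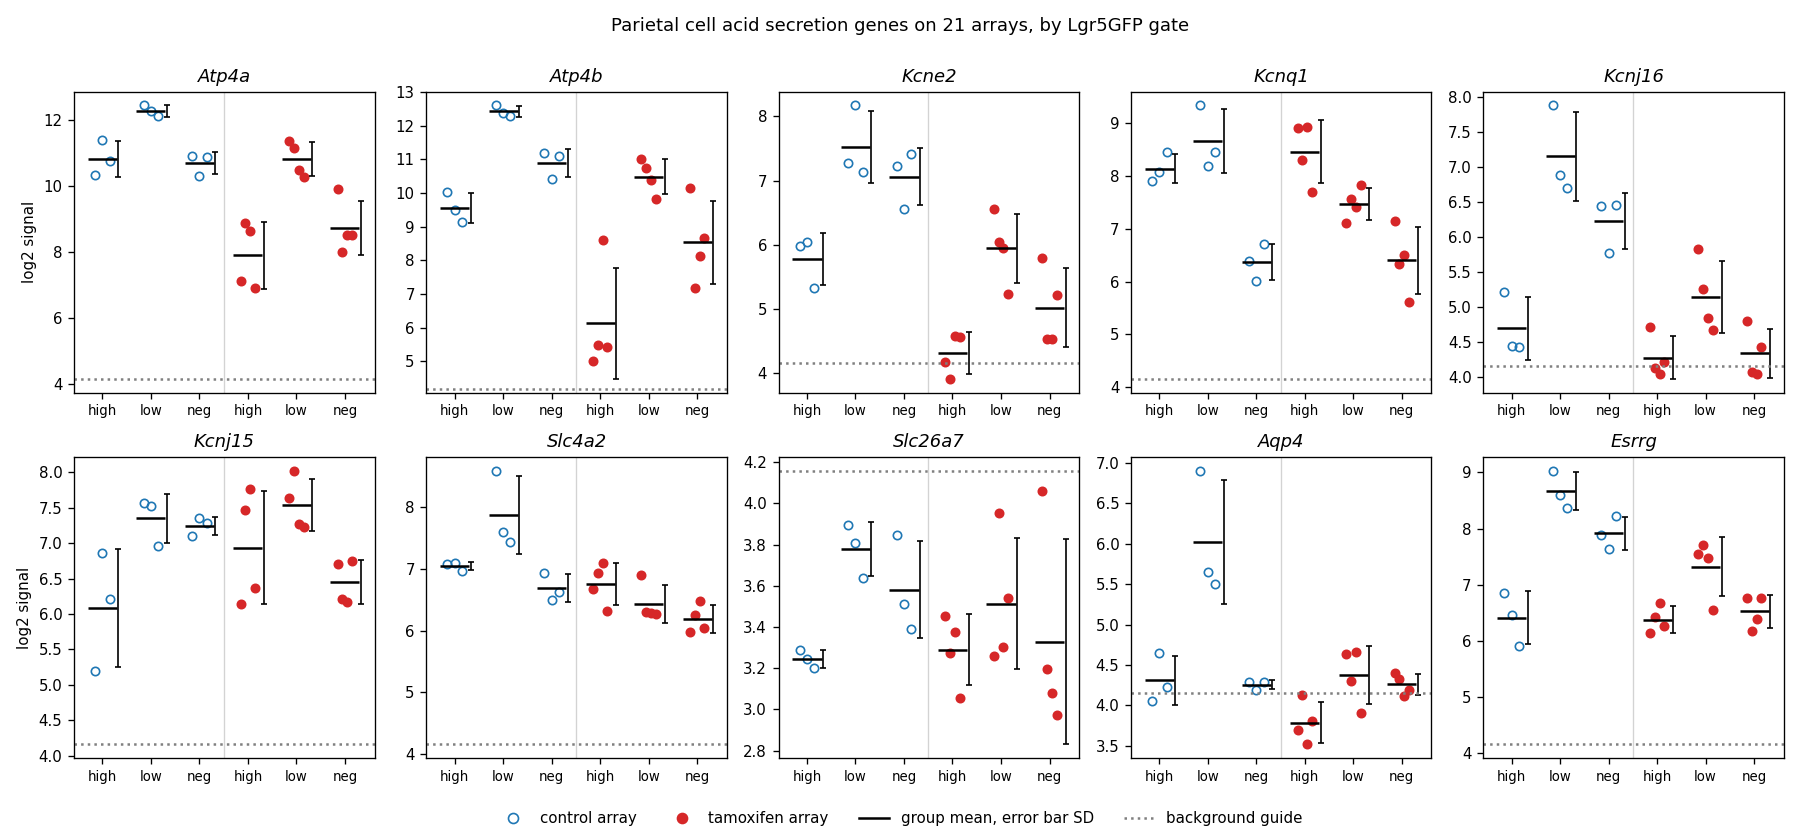
Log2 signal of each of the 10 genes (1 panel per gene) on all 21 arrays, with the 6 groups on the horizontal axis. Points are arrays (open, control and filled, tamoxifen), horizontal bars are group means with SD as error bars, and the dotted line is the background guide of 4.16. In the Atp4b panel, 1 tamoxifen high array at 8.59 stands above the other 3, which lie between 5.01 and 5.48, and the Slc26a7 points all lie below the line.

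Atp4a encodes the catalytic subunit of the H+,K+-ATPase. Its log2 levels were 10.32, 11.38 and 10.76 in control high cells, 12.44, 12.26 and 12.10 in control low cells, and 10.91, 10.30 and 10.86 in control negative cells. After tamoxifen they were 7.14, 8.89, 8.64 and 6.93 in high cells, 11.36, 11.14, 10.48 and 10.28 in low cells, and 9.91, 8.01, 8.51 and 8.51 in negative cells. Every tamoxifen array lay below every control array of the same population. The order of group means ran from control low, through control high, tamoxifen low and control negative, which lay within 0.13 of each other, to tamoxifen negative and tamoxifen high.

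Atp4b encodes the glycosylated beta subunit, which the pump needs to reach the membrane. The log2 levels of Atp4b were 10.04, 9.49 and 9.15 in control high cells, 12.61, 12.39 and 12.30 in low cells, and 11.19, 10.41 and 11.09 in negative cells. In tamoxifen mice they were 5.01, 5.48, 8.59 and 5.42 in high cells, 11.00, 10.75, 10.39 and 9.81 in low cells, and 10.14, 7.18, 8.14 and 8.67 in negative cells. Here too no array of a tamoxifen population reached the control arrays of that population. The tamoxifen high group was split, with replicate 3 well above the other 3 arrays.

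In Lgr5GFP high cells, both pump subunits were lower after tamoxifen, with the largest tamoxifen differences measured for any of the 10 genes in any population. Atp4a was 7.57-fold lower (log2 difference -2.92, SE 0.45, limma adjusted p = 0.00132). Atp4b was 10.8-fold lower (log2 difference -3.43, SE 0.65, limma adjusted p = 0.00691), and without tamoxifen high replicate 3 its difference was -4.26. Both calls rest on the spread pooled over all 21 arrays. When only the 7 arrays of the high population were fitted, the adjusted p was 0.117 for Atp4a and 0.187 for Atp4b.

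In the low cells, both subunits were lower without overlap, but neither passed the test. The log2 difference was -1.45 (SE 0.45, limma adjusted p = 0.0504) for Atp4a and -1.94 (SE 0.65, limma adjusted p = 0.0731) for Atp4b. Both passed when only the 7 arrays of that population were fitted, with adjusted p = 0.0057 and 0.00124. In the negative cells, Atp4a was 3.87-fold lower (log2 difference -1.95, SE 0.45, limma adjusted p = 0.0231). That call was lost without tamoxifen negative replicate 2 or 3 or without any of the 3 control negative arrays, where the adjusted p reached 0.117. Atp4b differed by -2.36 (SE 0.65, limma adjusted p = 0.0613) in the negative cells, and by -2.90 with adjusted p = 0.0205 without tamoxifen negative replicate 1.

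Kcne2 encodes a beta subunit that pairs with the pore protein of Kcnq1 in the apical membrane. The Kcne2 log2 levels were 5.98, 6.04 and 5.32 in control high cells, 7.28, 8.17 and 7.13 in low cells, and 7.22, 6.55 and 7.41 in negative cells. In tamoxifen mice they were 4.17, 3.91, 4.59 and 4.57 in high cells, 6.56, 6.04, 5.95 and 5.24 in low cells, and 5.80, 4.53, 4.54 and 5.22 in negative cells. The control and tamoxifen arrays did not overlap in any population, and the tamoxifen high arrays were close to background. Kcne2 was the 1 gene of the 10 called lower in all 3 populations. It was 2.78-fold lower in high cells (log2 difference -1.47, SE 0.34, limma adjusted p = 0.0232), 3.00-fold lower in low cells (log2 difference -1.58, SE 0.34, limma adjusted p = 0.0055) and 4.11-fold lower in negative cells (log2 difference -2.04, SE 0.34, limma adjusted p = 0.00231). The call in high cells was lost without control high replicate 1 or 2, without tamoxifen high replicate 1 or 2, and in a fit of the 7 high arrays, where the adjusted p was 0.111. The call in low cells was lost without control low replicate 2, with adjusted p = 0.0511.

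Kcnq1 encodes the pore that Kcne2 accompanies, and it followed a different course. The log2 levels of Kcnq1 were 7.89, 8.07 and 8.44 in control high cells, 9.33, 8.18 and 8.44 in low cells, and 6.39, 6.01 and 6.70 in negative cells. The tamoxifen arrays stood at 8.90, 8.30, 8.93 and 7.69 in high cells, 7.10, 7.55, 7.41 and 7.82 in low cells, and 7.15, 6.33, 6.51 and 5.62 in negative cells. All Kcnq1 high arrays lay above all negative arrays in both treatments, and the mean was highest in low cells in control mice and in high cells in tamoxifen mice. High minus low was -0.52 in control mice and 0.98 in tamoxifen mice, and neither passed the test (limma adjusted p = 0.742 and 0.0935). With tamoxifen, Kcnq1 fell in low cells (2.26-fold, log2 difference -1.18, SE 0.34, limma adjusted p = 0.0332). This call was lost without tamoxifen low replicate 1, 2 or 3 or without control low replicate 1 or 3, where the adjusted p reached 0.224. The difference was 0.32 in high cells (limma adjusted p = 0.687) and 0.03 in negative cells (limma adjusted p = 0.982).

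Markers of tuft cells, a chemosensory cell type, also differed between the groups. The mean log2 level of 8 tuft cell genes lay between 9.37 and 10.26 on control high arrays, 7.57 and 8.90 on control low arrays and 6.14 and 7.12 on control negative arrays. After tamoxifen the ranges were 6.83 to 9.41, 5.11 to 6.33 and 5.20 to 6.26. In low cells 6 of the 8 tuft genes fell with tamoxifen, as Kcnq1 did. In high and negative cells the median difference of the 8 was -1.16 and -1.05, with 1 and 0 called by limma (6 and 4 lower at unadjusted p under 0.05), beside 0.32 and 0.03 for Kcnq1. In control mice the mean of the tuft genes was highest in high cells. The Kcnq1 mean was highest in low cells there, but high and low cells did not differ by the test. That Kcnq1 difference, high minus low, was -0.52 (limma adjusted p = 0.742), and -0.175 without control low replicate 1. None of the 8 tuft genes was below background in any group, and their part in the Kcnq1 values was not tested.

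Kcnj16 encodes an inward rectifier potassium channel subunit. The log2 levels of Kcnj16 were 5.21, 4.44 and 4.42 in control high cells, 7.88, 6.88 and 6.70 in low cells, and 6.45, 5.77 and 6.46 in negative cells. After tamoxifen they were 4.72, 4.13, 4.04 and 4.22 in high cells, 5.82, 5.25, 4.84 and 4.66 in low cells, and 4.80, 4.07, 4.04 and 4.42 in negative cells. The groups overlapped in high cells and were apart in low and negative cells, and 2 of 4 arrays of each of the tamoxifen high and negative groups were below background. Kcnj16 fell 4.02-fold in low cells (log2 difference -2.01, SE 0.31, limma adjusted p = 0.000343) and 3.71-fold in negative cells (log2 difference -1.89, SE 0.31, limma adjusted p = 0.002). In high cells, where it was already near background in control mice, the difference was -0.42 (limma adjusted p = 0.537).

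Kcnj15, another inward rectifier, did not pass the tamoxifen test in any population. Its arrays ranged from 5.20 to 6.85 in control high cells and from 6.15 to 7.76 in tamoxifen high cells, with a difference of 0.85 (limma adjusted p = 0.236). In low cells the ranges were 6.96 to 7.57 and 7.23 to 8.02, with a difference of 0.19 (limma adjusted p = 0.828). In negative cells they were 7.10 to 7.35 and 6.16 to 6.75, without overlap, with a difference of -0.79 (limma adjusted p = 0.378).

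Slc4a2 encodes a chloride and bicarbonate exchanger of the basolateral membrane. Its log2 levels were 7.07, 7.10 and 6.97 in control high cells, 8.59, 7.60 and 7.43 in low cells, and 6.93, 6.50 and 6.63 in negative cells. In tamoxifen mice they were 6.68, 6.94, 7.10 and 6.32 in high cells, 6.90, 6.30, 6.29 and 6.27 in low cells, and 5.98, 6.25, 6.48 and 6.04 in negative cells. Control low replicate 1 was the highest array, yet the low groups did not overlap with or without it. Slc4a2 fell 2.70-fold in low cells (log2 difference -1.44, SE 0.24, limma adjusted p = 0.000731). The differences in high and negative cells were -0.29 and -0.50 (limma adjusted p = 0.599 and 0.412). Slc26a7, the other exchanger of the list, was below background on all 21 arrays, from 2.97 to 4.06, so no change of it could be read from this probe set.

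Aqp4 encodes a water channel of the basolateral membrane. The log2 levels of Aqp4 were 4.06, 4.64 and 4.23 in control high cells, 6.90, 5.65 and 5.51 in low cells, and 4.29, 4.19 and 4.29 in negative cells. After tamoxifen they were 3.70, 4.13, 3.52 and 3.81 in high cells, 4.64, 4.30, 4.66 and 3.91 in low cells, and 4.41, 4.33, 4.11 and 4.19 in negative cells. Control low cells were the only group clearly above background, and all their arrays exceeded all arrays of the other 5 groups. Aqp4 fell 3.12-fold in low cells (log2 difference -1.64, SE 0.26, limma adjusted p = 0.000426), and by 1.20 on the log2 scale without control low replicate 1. The tamoxifen low mean of 4.38 was itself near background. In high cells the difference was -0.52 (limma adjusted p = 0.32), and in negative cells it was 0.00 (95% interval -0.54 to 0.54, limma adjusted p = 0.999), both measured near background.

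Esrrg encodes estrogen-related receptor gamma, a nuclear receptor known to regulate genes of energy and ion metabolism in parietal cells. Its log2 levels were 6.85, 6.46 and 5.92 in control high cells, 9.03, 8.60 and 8.37 in low cells, and 7.88, 7.63 and 8.23 in negative cells. The tamoxifen arrays stood at 6.15, 6.43, 6.68 and 6.27 in high cells, 7.55, 7.70, 7.48 and 6.56 in low cells, and 6.76, 6.18, 6.38 and 6.77 in negative cells. The arrays overlapped in high cells and were apart in the other populations. Esrrg fell 2.54-fold in low cells (log2 difference -1.34, SE 0.26, limma adjusted p = 0.00279) and 2.62-fold in negative cells (log2 difference -1.39, SE 0.26, limma adjusted p = 0.00618). The negative call was lost without control negative replicate 3, with adjusted p = 0.0568. In high cells the difference was -0.03 (95% interval -0.58 to 0.52, limma adjusted p = 0.972), so no change of Esrrg was detected there. The relation of Esrrg to the levels of the pump genes was not tested.

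Counted over the 10 genes, 3 fell with tamoxifen in high cells, 6 in low cells and 4 in negative cells, and limma called 0 higher at adjusted p under 0.05. At unadjusted p under 0.05 there were 3, 8 and 6 lower, and 1 higher, Kcnj15 in high cells. Over all 22180 genes the share called lower was 1.04% in high cells, 2.98% in low cells and 0.703% in negative cells, and the share called higher was 1.7%, 5.35% and 1.62%. The median log2 difference of the 10 genes was -0.35, -1.45 and -1.09, against medians of all genes of 0.001, 0.008 and -0.003. In high, low and negative cells, that median was -1.16, -2.70 and -1.05 for tuft genes and -0.41, -1.94 and -1.84 for mucous neck genes. For endocrine genes it was 0.36, -2.10 and 2.04, and for surface pit genes -0.50, 0.79 and -0.57. Chief genes had -0.22, -0.29 and -0.16, immune genes -0.06, -0.14 and -0.32, and fibroblast and endothelial genes -0.11, -0.19 and -0.28. A fall of the median was therefore not particular to the acid secretion genes. The tamoxifen arrays lay below the control arrays without overlap for 3, 8 and 7 of the 10 genes, against 4.6%, 9.06% and 7.38% of all genes. The pump subunits and Kcne2 were the genes called in high cells. In low cells they were Kcne2, Kcnq1, Kcnj16, Slc4a2, Aqp4 and Esrrg, and in negative cells Atp4a, Kcne2, Kcnj16 and Esrrg. A fit of the 7 high arrays alone called none of the 10, and leaving out control negative replicate 3 left 2 called in negative cells.

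**Figure D2:**
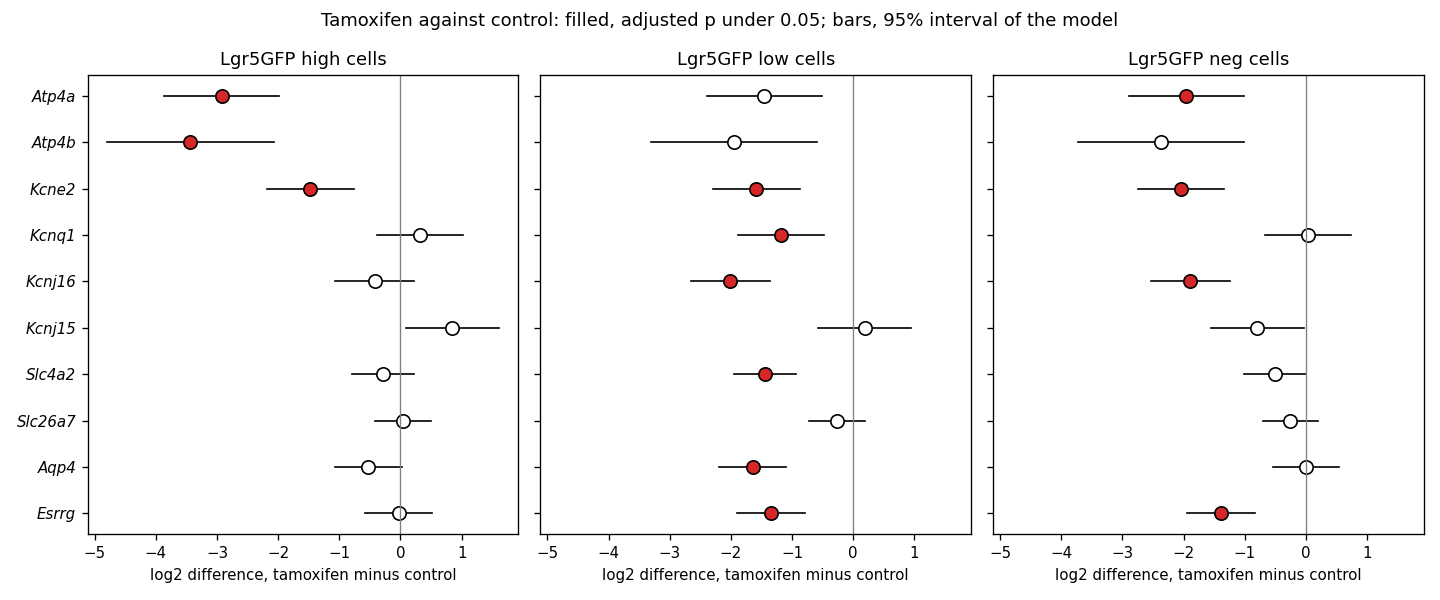
Log2 difference, tamoxifen minus control, of each of the 10 genes in high, low and negative cells, from the fit to all 21 arrays. Points are estimates, bars are 95% intervals, and filled points passed the adjusted p of 0.05. The 13 filled points all lie below 0, with Atp4b in high cells farthest at -3.43.

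Whether the tamoxifen effect itself differed between populations was tested with interaction terms. Aqp4 was the only one of the 10 genes called, and only between low and negative cells (difference of effects -1.64, SE 0.37, limma adjusted p = 0.0354), where 0.839% of all genes were called. In negative cells Aqp4 was near background in both treatments (mean 4.26 in each). A fall there could not be measured, so this term does not show that the effect differed. The Aqp4 call was lost when any of 9 single arrays was left out, with adjusted p up to 0.0989. Those arrays were control low replicate 1, all 3 control negative arrays, tamoxifen low replicates 2 and 4, and tamoxifen negative replicates 1, 2 and 3. None of the 10 was called between high and negative cells (0.248% of all genes) or between high and low cells (0.0271%), where 3 and 6 of them had an unadjusted limma p under 0.05. The effect in high cells minus that in negative cells was 1.36 for Esrrg (limma adjusted p = 0.155) and 1.47 for Kcnj16 (limma adjusted p = 0.22). With array weights both were called (adjusted p = 0.0491 for Esrrg and 0.0481 for Kcnj16). With the replicate number as a block Kcnj16 was called between high and negative cells (adjusted p = 0.0321) and between high and low cells (adjusted p = 0.0492). Kcnj16 was already near background in control high cells (mean 4.69), which limits the fall that could be measured there.

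Markers of other cell types also moved with tamoxifen. The 7 endocrine cell genes had a mean log2 level between 8.33 and 10.29 on control low arrays and between 6.29 and 9.05 on tamoxifen low arrays. In negative cells they went the other way, from 8.50 to 9.82 in controls to 9.74 to 11.56 after tamoxifen. Over all genes, 1.04%, 2.98% and 0.703% were called lower in high, low and negative cells, and 1.7%, 5.35% and 1.62% higher. Of the 5 mucous neck cell genes, 2 fell in low cells and 3 in negative cells (5 and 4 lower at unadjusted p under 0.05). All 5 had differences below 0 in each population. Their mean level was 11.18 in control and 9.39 in tamoxifen low cells, 11.05 and 9.07 in negative cells, and 10.94 and 10.48 in high cells. The 8 chief cell genes lay between 10.95 and 11.25 on control low arrays and between 10.08 and 10.36 after tamoxifen, with 2 called lower, and 1 was called lower in high cells. Of the 6 surface pit cell genes, 1 fell in high cells and 1 rose in low cells, and in negative cells limma called 0 (0 at unadjusted p under 0.05). Of the 5 immune genes, Ptprc fell in low cells (log2 difference -2.67, limma adjusted p = 0.0209) and Cd68 rose in low and negative cells (2.79 and 2.14, limma adjusted p = 6.78e-07 and 4.57e-05). Of the 6 fibroblast and endothelial genes limma called 0 in each population, and 1 was lower in low cells at unadjusted p under 0.05. The part of these shifts in the values of the acid secretion genes was not tested.

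Within control mice, low cells were compared with negative cells. The levels of 3 of the 10 genes were higher in low cells, where 1.85% of all genes were called higher. They were Kcnq1 (4.86-fold, log2 difference 2.28, SE 0.36, limma adjusted p = 0.000708), Aqp4 (3.39-fold, log2 difference 1.76, SE 0.28, limma adjusted p = 0.000681) and Slc4a2 (2.27-fold, log2 difference 1.18, SE 0.26, limma adjusted p = 0.00926). The Slc4a2 call was lost without control low replicate 1 or control negative replicate 2. Control arrays of the same sorting run deviated together, so the run was also fitted as a block, and 6 of the 10 genes were then called. That fit used the control arrays alone. The share of all genes called was not counted for this or the later block fits, so the added calls have no background beside them. The added genes were Atp4a (1.58, adjusted p = 0.00717), Atp4b (1.53, adjusted p = 0.00217) and Kcnj16 (0.93, adjusted p = 0.0244). Without the block their adjusted p values were 0.0636, 0.282 and 0.13. Atp4a was higher in low than in negative cells in 3 of 3 runs, by 1.24 to 1.96, and Atp4b by 1.21 to 1.98.

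High cells of control mice were also compared with low and negative cells, and these comparisons share arrays with the one above. Against low cells, 5 of the 10 genes were lower, where 0.645% of all genes were called lower. Esrrg was 4.78-fold lower (log2 difference -2.26, limma adjusted p = 0.000201), Kcnj16 5.50-fold lower (log2 difference -2.46, limma adjusted p = 0.000512), and Aqp4 and Kcne2 differed by -1.71 and -1.75 (limma adjusted p = 0.00335 and 0.0167). The Kcne2 call was lost without control high replicate 1 or 3 or control low replicate 2. Atp4b was 7.33-fold lower (log2 difference -2.87, limma adjusted p = 0.0428), a call lost when any single one of the 6 arrays was left out, and its adjusted p was 0.000296 with the run as a block. The block also added Atp4a (-1.45, adjusted p = 0.0196) and Kcnj15 (-1.26, adjusted p = 0.0496), for which the adjusted p was 0.17 and 0.127 without it. Fitted on the 6 arrays alone, the Kcne2 and Aqp4 calls were lost (adjusted p = 0.0572 and 0.0934).

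Against negative cells, control high cells had 1 gene higher and 3 lower, where 4.64% and 7.66% of all genes were called higher and lower. Kcnq1 was 3.40-fold higher (log2 difference 1.76, SE 0.36, limma adjusted p = 0.00205). Esrrg, Kcnj16 and Kcne2 were lower, with log2 differences of -1.50, -1.53 and -1.28 (limma adjusted p = 0.000973, 0.00328 and 0.0224), and the Kcne2 call was lost without control high replicate 3 or control negative replicate 1 or 3. The pump subunits did not pass, at 0.13 for Atp4a (limma adjusted p = 0.934) and -1.34 for Atp4b (limma adjusted p = 0.278). With the run as a block Atp4b passed (adjusted p = 0.00153), as did Kcnj15 (-1.16, adjusted p = 0.0247).

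**Figure D3:**
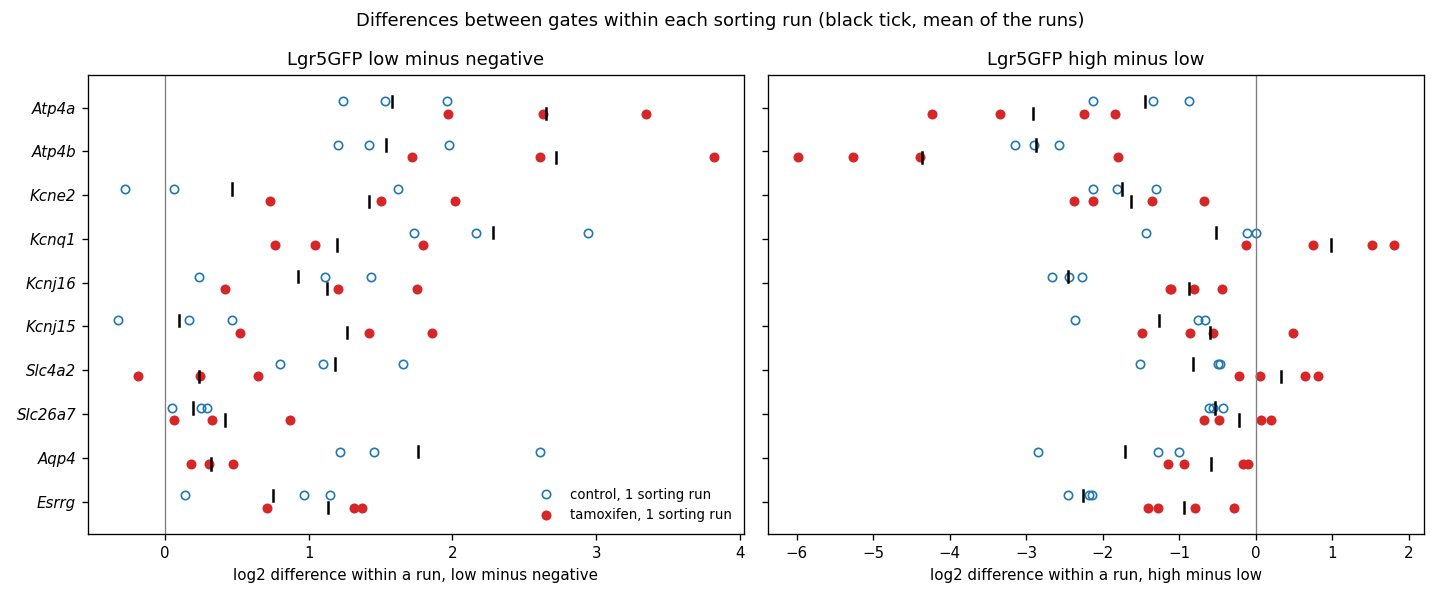
Log2 difference within each sorting run for each of the 10 genes, low minus negative (left) and high minus low (right). Open points are control runs, filled points are tamoxifen runs, and black ticks are means of the runs. For Atp4a, all 3 control runs lie between 1.24 and 1.96 on the left and between -2.12 and -0.88 on the right.

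Within tamoxifen mice, high cells had lower levels of 4 of the 10 genes than low cells, where 1.77% of all genes were called lower. Atp4b was 20.6-fold lower (log2 difference -4.36, limma adjusted p = 0.000336) and Atp4a 7.55-fold lower (log2 difference -2.92, limma adjusted p = 0.000408). Without tamoxifen high replicate 3 the Atp4b difference was -5.19. Kcne2 was 3.11-fold lower (log2 difference -1.64, limma adjusted p = 0.00533). Esrrg differed by -0.94 (limma adjusted p = 0.0362), a call lost in 11 of 18 other settings. Kcnq1 pointed the other way, at 0.98 (limma adjusted p = 0.0935).

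The remaining comparisons in tamoxifen mice called few of the 10 genes. Low cells exceeded negative cells in Atp4a (4.22-fold, log2 difference 2.08, limma adjusted p = 0.0077), where 0.509% of all genes were called higher, and Atp4b differed by 1.96 (limma adjusted p = 0.11). High cells exceeded negative cells in Kcnq1 (4.14-fold, log2 difference 2.05, limma adjusted p = 0.000222) and were lower in Atp4b (log2 difference -2.41, limma adjusted p = 0.0124), where 10.3% of all genes were called in either direction. The Atp4b arrays of these 2 groups overlapped, and its call was lost in a fit of the 8 arrays alone (adjusted p = 0.137) and with the run as a block (-1.64, adjusted p = 0.15). Without tamoxifen high replicate 3 the Atp4b difference was -3.23.

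The genes were also described by how alike their levels were across the 21 arrays. Atp4a and Atp4b correlated with Pearson r = 0.92 over all arrays and r = 0.66 after group means were removed. These arrays share the groups and sorting runs, so the correlations are descriptions. Against the mean of the centred Atp4a and Atp4b levels, r was 0.91 for Kcne2, 0.81 for Esrrg, 0.79 for Kcnj16 and 0.70 for Aqp4. It was 0.58 for Slc26a7, 0.50 for Slc4a2, 0.43 for Kcnj15 and 0.07 for Kcnq1. The order changed after group means were removed. There r was 0.652 for Kcnj15, 0.618 for Esrrg, 0.588 for Kcne2 and 0.471 for Slc26a7. It was 0.359 for Kcnq1, 0.340 for Slc4a2, 0.293 for Kcnj16 and 0.145 for Aqp4. Kcnj16 and Esrrg had r = 0.94 with each other (0.629 within groups), while Kcne2 and its partner Kcnq1 had r = -0.04 (-0.112 within groups).

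The 8 genes outside the list that were most like the pump, of 12874 candidates above background, were Apoa1 (r = 0.936), Ckb (0.905), Cth (0.894), Lpl (0.879), Hrh2 (0.851), Auh (0.846), Tnni3 (0.836) and Retreg1 (0.835). Hrh2 encodes the histamine receptor through which histamine stimulates acid secretion, Ckb the brain-type creatine kinase, and Apoa1 an apolipoprotein. Because the 8 were picked by r on these same arrays, a profile like the pump's follows from the choice. Within groups r was 0.871 for Apoa1, 0.578 for Ckb, 0.669 for Cth and 0.631 for Lpl. It was 0.621 for Hrh2, 0.441 for Auh, 0.669 for Tnni3 and 0.370 for Retreg1. Apoa1 had mean levels of 5.92, 8.80 and 6.93 in the high, low and negative populations of control mice and of 4.43, 7.11 and 6.10 after tamoxifen, so it was highest in control low and lowest in tamoxifen high cells, as Atp4b was.

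**Figure D4:**
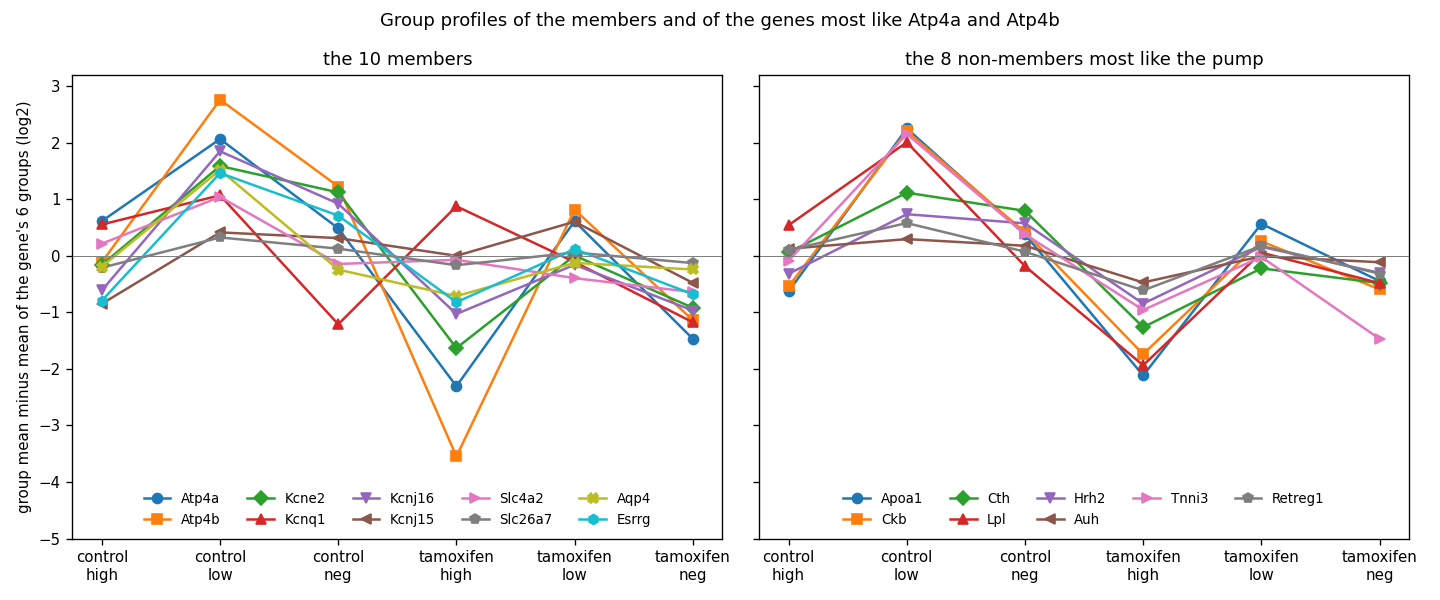
Group mean log2 level minus the mean of the gene's 6 groups, for the 10 genes (left) and for the 8 other genes most like Atp4a and Atp4b (right). Most lines peak in control low cells and have their lowest point in tamoxifen high cells, while Kcnq1 rises there and has its lowest point in control negative cells.

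Most other genes of acid secretion were not called with tamoxifen. Of 15 further transport and trafficking genes, 1 fell in high cells, 2 fell and 1 rose in low cells, and 1 fell in negative cells. Over all genes 1.04%, 2.98% and 0.703% were called lower, and 5.35% were called higher in low cells. The tamoxifen arrays lay below the control arrays without overlap for 1, 4 and 5 of the 15, and above for 0, 1 and 0. Over all genes the shares below were 4.6%, 9.06% and 7.38%. Vamp2, a vesicle fusion protein, fell in high and low cells (log2 difference -0.999 and -0.981, limma adjusted p = 0.0236 and 0.01). Clic6, an intracellular chloride channel protein, fell in low and negative cells (-0.85 and -0.77, limma adjusted p = 0.00599 and 0.0272). Rab11a, a small GTPase of recycling vesicles, rose in low cells (0.61, limma adjusted p = 0.0346). The median difference of these 15 genes was 0.09, 0.05 and -0.12 in high, low and negative cells.

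Of 8 receptor and signalling genes for the secretagogues, limma called 0 in high and low cells (0 and 2 at unadjusted p under 0.05), and 2 rose in negative cells. These were Cckbr, the gastrin receptor (log2 difference 2.03, limma adjusted p = 0.0108), and Ptger3, a prostaglandin E receptor (2.17, limma adjusted p = 0.0102). The tamoxifen effect on Cckbr differed between low and negative cells (-2.95, limma adjusted p = 0.0193), as did that on Sstr2, a somatostatin receptor (-1.49, limma adjusted p = 0.0429). Both receptors are also known from endocrine cells of the stomach. Of the 7 endocrine markers, limma called 1 higher in the same negative cells (5 higher and 0 lower at unadjusted p under 0.05). The median log2 difference of these markers there was 2.04, and the part of endocrine cells was not tested. Of 9 further genes tied to parietal cell identity, Ckb was the only one called with tamoxifen, in high cells (-1.20, limma adjusted p = 0.0312) and in low cells (-1.95, limma adjusted p = 0.000276).

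Between populations of control mice, the same lists were uneven. Against negative cells, high cells had less Ezr, a membrane cytoskeleton linker (-1.64, limma adjusted p = 0.000253), less Slc9a2, a sodium and proton exchanger (-1.55, limma adjusted p = 0.000905), and more Vamp2 (1.23, limma adjusted p = 0.00176). Tfcp2l1, a transcription factor, was also lower there (-2.16, limma adjusted p = 0.00175), and so was Shh, a secreted signal (-1.46, limma adjusted p = 0.0062), measured below background in high cells. Low cells had more Ckb than negative cells (1.79, limma adjusted p = 0.00191) and more Vegfb, a growth factor (0.61, limma adjusted p = 0.0234), and less Shh (-1.24, limma adjusted p = 0.0379), measured below background in low cells. Against low cells, high cells had less Ckb (-2.74, limma adjusted p = 8.8e-05), Clic6 (-1.13, limma adjusted p = 0.00469) and Ezr (-1.37, limma adjusted p = 0.0105).

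Within tamoxifen mice, high cells had less Car2, a carbonic anhydrase, than negative cells (-1.80, limma adjusted p = 0.000476), and less Ezr (-1.25, limma adjusted p = 0.00125). Cckbr and Sstr2 were lower than in negative cells both in high cells (-2.60 and -1.69) and in low cells (-2.69 and -1.59), with limma adjusted p of 0.000285 or less in each case. Chrm3, the muscarinic acetylcholine receptor of the list, was higher than in negative cells in both (0.67 and 0.87, limma adjusted p = 0.0484 and 0.0314). Against low cells, high cells had less Ckb (-1.997, limma adjusted p = 0.000307) and less Hrh2 (-1.01, limma adjusted p = 0.0448), whose mean in high cells was below background.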

How the data were processed

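RNA of sorted mouse stomach cells was measured on 21 arrays. The authors deposited a log2 signal for each of 41345 probe sets. The submitters' processing notes name the tools RMA, oligo, limma (3.26.8) and R (3.2.3) and do not say what each one did. The build used by the authors is not given in the sources used here. Of the probe sets, 23521 name 1 gene, 1814 several and 16010 none. Symbols were updated by gene number, and the brightest probe set per gene was kept, which gave 22180 genes.

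Group means were fitted to all 21 arrays with limma 3.58.1 in R 4.3.3 (lmFit and eBayes, 15 residual and 5.27 prior degrees of freedom), after a check on simulated data. Of 12 comparisons, 3 set tamoxifen against control, 6 set populations against each other within a treatment, and 3 were interactions. Tests were two-sided, and genes with a Benjamini-Hochberg adjusted p under 0.05 over all genes were called. SE comes from the fit. The number of arrays limits the precision.

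The genes, lists and naming rule were chosen with earlier results of these data known. The rule named all 10 genes, up to 2 called genes each way per comparison in each of the lists for transport and trafficking, secretagogue signalling and parietal identity, and the 8 genes most like the pump. The lists of other cell types (chief, mucous neck, surface pit, tuft, endocrine, immune, fibroblast and endothelial) are given by counts and levels.

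Pairing was checked on the deviations of 12883 genes from group means. The 9 same-run pairs of control arrays correlated at 0.116 to 0.36 (18 other pairs at -0.322 to 0.047). The 10 same-run pairs of tamoxifen arrays ran from -0.159 to 0.496 (38 other pairs at -0.311 to 0.406). Beside the main fit, the run was fitted as a block within each treatment. Same-run tamoxifen arrays had no clear shared deviation (median r 0.016, against 0.216 for same-run control arrays). The run was inferred from the number before the replicate in the titles, since the series text speaks of separate sorting runs, and no label states it. Run and treatment are nested, so between treatments the run could enter only as a random block (consensus correlation 0.075).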

Additional observations from a re-analysis of the deposited data

Results flagged for a closer look

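Atp4b in tamoxifen high cells had 1 array, replicate 3, at 8.59, while the other 3 lay between 5.01 and 5.48. Slc4a2 in tamoxifen low cells had replicate 1 at 6.90, and the other 3 arrays lay between 6.27 and 6.30. Of 30 gene and group sets of 4 arrays examined this way, 2 held such a separated array, and chance gives about 1 in 20. The measured tamoxifen effect on Aqp4 differed between low and negative cells by -1.64 on the log2 scale (limma adjusted p = 0.0354 for the interaction). In negative cells Aqp4 was near background in both treatments, so a fall there could not be measured.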

How the results depend on the processing

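Counts of the 10 genes called moved by over 1.5 times in these cases, whose cause was not tested except that a fit of only the groups compared has fewer arrays. The share of all genes called under these other settings was not counted. With only the groups compared, the count was 0 for tamoxifen against control in high cells (3 in the full fit), 5 for low against negative (3) and 3 for high against low (5) in control mice, and 2 for low against negative (1) and 1 for high against negative (2) in tamoxifen mice. Array weights gave 3 for low against negative cells in tamoxifen mice and 2 for the interaction of high with negative cells (0). The replicate block gave 2 for low against negative in tamoxifen mice, 1 for the interaction of high with negative cells and 1 for that of high with low cells (0). The block by sorting run gave 6 for low against negative in control mice and 1 for high against negative in tamoxifen mice. Leaving out 1 array gave counts of 2 to 3, 5 to 6 and 2 to 5 for tamoxifen against control in high, low and negative cells. In control mice it gave 2 to 3 for low against negative, 3 to 5 for high against negative and 3 to 4 for high against low. In tamoxifen mice it gave 1 to 3, 2 to 2 and 3 to 4 for the same pairs, and for the interactions 0 to 1 (low with negative), 0 to 0 (high with negative) and 0 to 0 (high with low).

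Signs turned for some differences near 0 that were not called. Kcnq1 in negative cells was -0.027 under cyclic loess and -0.109 with array weights (leave-one-out -0.215 to 0.295). Esrrg in high cells was 0.043 with array weights and 0.041 with the replicate block (leave-one-out -0.275 to 0.192). Aqp4 in negative cells was -0.020 with array weights and -0.007 with the run as a random block (leave-one-out -0.047 to 0.050). Leave-one-out gave -0.011 to 0.122 for Slc26a7 in high cells and -0.007 to 0.300 for Kcnj15 in low cells. In high against negative cells of control mice, leave-one-out gave -0.153 to 0.380 for Atp4a and -0.113 to 0.180 for Aqp4. In tamoxifen mice, the block by sorting run gave 0.185, 0.241 and 0.083 for Kcnj16, Slc26a7 and Esrrg in the same comparison, all below 0 in the full fit. Signals near background limit Slc26a7, Aqp4 and Kcnj16, for which a fall below background cannot be measured.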
